A study of Homo sapiens with 24 samples.

Results

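The SERINC family has 5 human genes, SERINC1 to SERINC5, and all 5 were measured here in 2 B-lymphoblastoid cell lines, out of 18417 genes that the array names without ambiguity. Members were chosen by symbol: every probe set annotated to one of these 5 symbols was taken, which gave 6 probe sets, 1 for each gene and a further 1 for SERINC2. No probe set carried a SERINC symbol together with another gene's symbol. The family was selected with the agent responses of these arrays known. Levels and agent changes of the SERINC probe sets are therefore given below as descriptions, with intervals and with counts of calls but no p-values. For these probe sets, p-values are kept to the difference between the cell lines and to the difference of a response between them, and genes outside the family have p-values for agent changes too.

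SERINC proteins span the membrane many times. They are named serine incorporators because they were first described as carriers that supply serine for the synthesis of phosphatidylserine and sphingolipids. SERINC5 and SERINC3 are best known as restriction factors: they enter budding retroviral particles and lower their infectivity, and the HIV protein Nef counters them by drawing them from the cell surface through the AP-2 clathrin adaptor. Later work described several members as lipid scramblases, which move phospholipids between the leaflets of a membrane. SERINC2 has been studied less than these members.

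The lines were GM10855 and GM10861, HapMap lines of B cells immortalised with Epstein-Barr virus, each of which descends from the cells of a single donor. Cells were taken without treatment at 0 h, or at 36 h after calcitriol (active vitamin D, the ligand of the vitamin D receptor), estrogen, or both agents. This gave 8 groups of 3 arrays, 24 in all. The untreated group has 0 h as its single time, so an agent's effect against them and the effect of 36 h in culture cannot be told apart. Calcitriol added to estrogen, and estrogen added to calcitriol, compare groups of the same time. The labels name no dose, estrogen compound or vehicle, nor whether arrays of 1 group stand for separate cultures, so errors and p-values measure the spread between arrays, which may be technical.

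Values are log2 signals per probe set after RMA, in which an increase of 1 is a doubling of the signal. Array medians lay between 5.38 and 5.50, arrays of 1 group correlated at 0.990 to 0.995 over 21214 annotated probe sets, and 0 pairs of arrays were identical. The 13 measured B cell markers had a mean log2 signal of 7.44 to 7.82 per array. Means of the other marker lists ran from 4.92 to 5.20 for T cells, 4.12 to 4.43 for NK cells, 4.22 to 4.55 for monocytes, 4.45 to 4.72 for erythroid cells and 4.52 to 4.75 for fibroblasts. A change is called where its adjusted p in limma was under 0.05, with Benjamini-Hochberg adjustment over all 21214 probe sets.

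SERINC2, the member that moved with calcitriol, lies on chromosome 1 and has 4 annotated starts in RefSeq (GRCh38.p14, plus strand). The vitamin D receptor with its partner RXR is known to bind pairs of half-sites arranged as a direct repeat with 3 bases between them, so the windows from 250 bases before to 50 bases after each start were read for the half-site AGGTCA, for its variant GGGTCA and for the further variant GGTTCA, on both strands. The 3 windows of SERINC2 that hold one are shown because they belong to the gene that responded, with the match in capitals.
SERINC2 window 1, chr1:31409527-31409826: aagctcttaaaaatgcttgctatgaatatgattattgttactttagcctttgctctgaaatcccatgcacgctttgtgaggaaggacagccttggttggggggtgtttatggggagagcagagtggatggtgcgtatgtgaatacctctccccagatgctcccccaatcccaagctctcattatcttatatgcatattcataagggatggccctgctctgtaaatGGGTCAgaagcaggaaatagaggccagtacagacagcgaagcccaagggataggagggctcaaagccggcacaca
SERINC2 window 2, chr1:31409903-31410202: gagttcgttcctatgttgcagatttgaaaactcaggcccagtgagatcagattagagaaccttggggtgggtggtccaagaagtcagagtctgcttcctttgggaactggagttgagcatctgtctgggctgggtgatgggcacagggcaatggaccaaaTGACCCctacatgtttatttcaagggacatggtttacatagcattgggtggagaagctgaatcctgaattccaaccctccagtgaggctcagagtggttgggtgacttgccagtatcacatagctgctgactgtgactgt
SERINC2 window 3, chr1:31412963-31413262: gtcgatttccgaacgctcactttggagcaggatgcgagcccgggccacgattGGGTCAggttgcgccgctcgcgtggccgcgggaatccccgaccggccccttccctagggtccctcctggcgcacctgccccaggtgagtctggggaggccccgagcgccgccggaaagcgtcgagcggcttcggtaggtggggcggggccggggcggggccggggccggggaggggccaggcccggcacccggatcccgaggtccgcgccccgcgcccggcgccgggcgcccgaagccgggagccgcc
Windows 1 and 3 hold GGGTCA, and window 2 holds TGACCC, which is GGGTCA read on the other strand. Window 4 (chr1:31413563-31413862) holds none of the half-sites, nor do the single windows of SERINC1 on chromosome 6, SERINC3 on chromosome 20, SERINC4 on chromosome 15 and SERINC5 on chromosome 5. Such single half-sites are common: 31.7% of 35116 RefSeq promoter windows of this length hold at least 1. A direct repeat of exact matches to the half-sites named above, with 3 bases between them, was in 0 of the 8 SERINC windows. It was in 17 windows of the whole table, 0.0484%. Other forms of the half-site were not searched. A match is a description of letters in the window and does not show that a factor binds there, and the starts that these cells used were not measured.

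The SERINC2 windows differ from each other in composition. Windows 1 and 2 have 48.0% and 49.7% G and C bases, with 4 and 1 CpG, whereas windows 3 and 4 have 77.7% and 69.7%, with 42 and 27 CpG. The median window of the table has 58.7% and 14 CpG. Among the other members, SERINC5 has a window of the rich kind (76.0%, 39 CpG), and SERINC1 (53.0%, 22 CpG), SERINC3 (54.0%, 16 CpG) and SERINC4 (51.7%, 9 CpG) lie nearer the median.

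SERINC2 rose with calcitriol in both lines, whether or not estrogen was present. This was seen on the first of its probe sets, 7899615, which is annotated with 12 sequence records. In GM10855 the untreated arrays read 6.56, 6.78 and 6.43, and the calcitriol arrays 6.96, 7.12 and 7.03. With estrogen they read 6.63, 6.34 and 6.35, and with both agents 6.83, 6.97 and 6.98. All 6 arrays with calcitriol (6.83 to 7.12) lay above all 6 without it (6.34 to 6.78), while calcitriol alone overlapped both agents and estrogen overlapped untreated.

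GM10861 showed the same separation with a wider gap. Its untreated arrays read 6.75, 6.71 and 6.77, and its calcitriol arrays 7.69, 7.54 and 7.55. Estrogen gave 6.73, 6.75 and 6.93, and both agents gave 7.42, 7.44 and 7.64. The 6 arrays with calcitriol (7.42 to 7.69) again lay above the 6 without it (6.71 to 6.93), with overlap between calcitriol and both agents and between estrogen and untreated. The share of all probe sets that separate 6 against 6 in this way was not counted in either line. The separation is therefore given as a description of SERINC2 only.

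**Figure D1:**
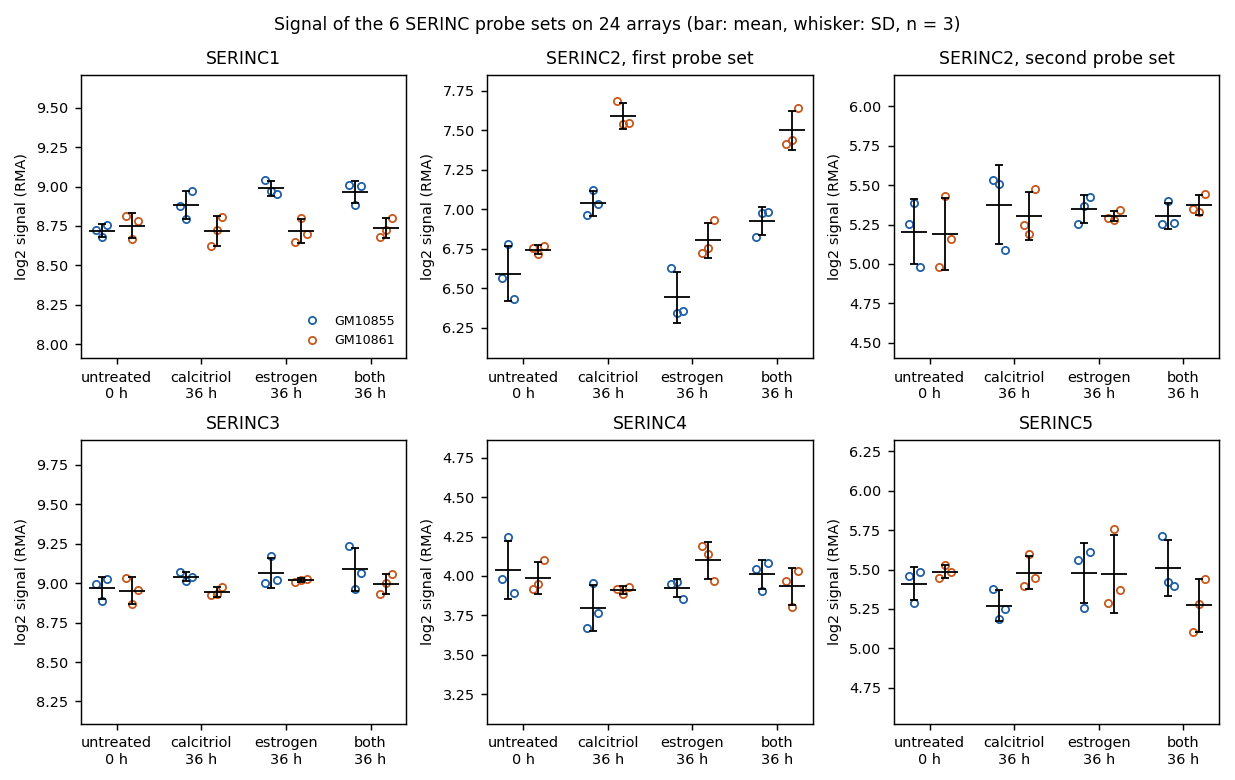
Log2 signal (vertical axis) of the 6 SERINC probe sets by agent (horizontal axis) in GM10855 (blue) and GM10861 (orange). Each circle is an array, each bar a group mean and each whisker its SD (n = 3), and every panel spans the same number of log2 units around its own mean. The calcitriol and both-agents groups of the first SERINC2 probe set stand above the other groups in each line, and the remaining panels show no such step.

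The group means of SERINC2 in GM10855 ran from 7.04 ± 0.08 (SD, n = 3) with calcitriol through 6.93 ± 0.09 with both agents and 6.59 ± 0.17 untreated to 6.44 ± 0.16 with estrogen. In GM10861 the order was 7.59 ± 0.08 with calcitriol, 7.50 ± 0.13 with both agents, 6.80 ± 0.11 with estrogen and 6.74 ± 0.03 untreated. In each line the arrays of the first 2 groups overlapped, as did those of the last 2. The step between the means of these pairs of groups was larger than the SD of any group. In GM10855 the pairs were barely separated: the lowest both-agents array lay 0.05 above the highest untreated array.

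Averaged over the lines, calcitriol raised SERINC2 by 0.65 ± 0.068 (SE; 95% interval 0.51 to 0.79) against untreated, a 1.56-fold signal. The rise was 0.45 ± 0.096 in GM10855 and 0.85 ± 0.096 in GM10861, or 1.36-fold and 1.80-fold. Added to estrogen at the same 36 h, calcitriol raised it by 0.59 ± 0.068 (0.45 to 0.73), with 0.49 in GM10855 and 0.70 in GM10861. Both agents against untreated gave 0.55 ± 0.068 (0.40 to 0.69), with 0.34 and 0.76. In bulk RNA a higher signal from each cell and a larger share of cells with a high signal cannot be told apart.

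Of the 6 SERINC probe sets, this 1 was called in each of the 3 calcitriol comparisons averaged over the lines. The background share of probe sets called was 0.679% for calcitriol against untreated, 0.754% for calcitriol added to estrogen and 1.15% for both agents against untreated. Within single lines, SERINC2 was called in 5 of 6 such comparisons and not with both agents in GM10855, where its rise was 0.34. Background shares in GM10855 were 0.509% with calcitriol, 0.632% with calcitriol added to estrogen and 2.33% with both agents, and in GM10861 they were 0.104%, 0.127% and 0.184%. Since the family was selected on these responses, nothing is read from the counts. By the size of its rise averaged over the lines, SERINC2 stood 18th of 131 probe sets called higher with calcitriol, 22nd of 144 with calcitriol added to estrogen and 33rd of 211 with both agents. Places within single lines are among called sets of unlike size, so they do not compare the lines. In GM10855 SERINC2 was 74th of 103 with calcitriol and 68th of 111 with calcitriol added to estrogen. In GM10861 it was 7th of 21 and 8th of 26 in these comparisons, and 10th of 36 with both agents. Arrays that did not overlap and moved the same way in both lines were found for 1.3% of probe sets with calcitriol (188 higher, 88 lower) and for 1.23% with calcitriol added to estrogen (176 higher, 84 lower), and in each case SERINC2 was the single SERINC probe set among them.

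Estrogen moved SERINC2 by -0.05 ± 0.068 (-0.19 to 0.10) against untreated and by -0.10 ± 0.068 (-0.24 to 0.04) when added to calcitriol. The interaction of the agents, which asks whether their joint effect departs from the sum of the separate ones, was -0.05 ± 0.096 (-0.25 to 0.14). No SERINC probe set was called in these comparisons. Limma called 0% of all probe sets for estrogen against untreated, for estrogen added to calcitriol and for the interaction, and 1097, 1772 and 935 had an unadjusted p under 0.05. Among 21214 tests, many unadjusted p-values this low arise without any effect, so these numbers do not count responding probe sets.

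**Figure D2:**
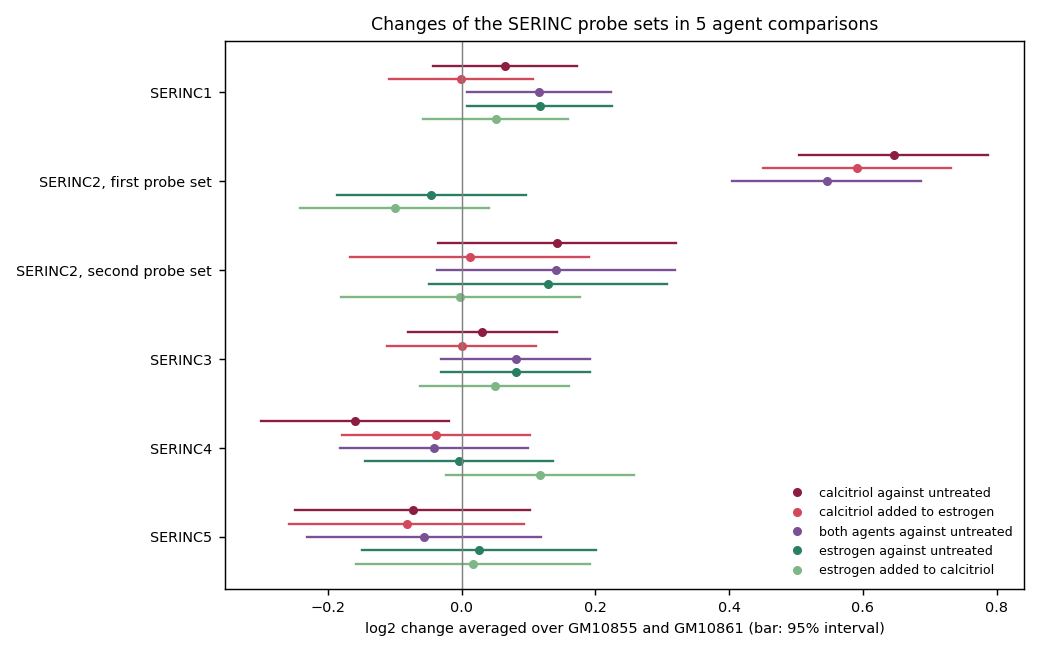
Log2 change averaged over both lines (horizontal axis, dots) with its 95% interval (bars) for the 6 SERINC probe sets (vertical axis) in 5 comparisons of agents, shown by colour. The 3 comparisons that add calcitriol lie at 0.55 to 0.65 for the first SERINC2 probe set, and every other change lies between -0.16 and 0.14.

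The rise of SERINC2 was larger in GM10861 on average, but the difference between the lines did not pass the test across all probe sets. It was 0.40 ± 0.14 (95% interval 0.12 to 0.68; adjusted p = 0.614, limma) for calcitriol against untreated. For both agents it was 0.42 ± 0.14 (0.14 to 0.70; adjusted p = 0.247, limma), and for calcitriol added to estrogen 0.21 ± 0.14 (-0.07 to 0.49; adjusted p = 0.810, limma). Few probe sets passed these tests at all: 0.00943%, 0.0141% and 0.00471% respectively, and 0 of the 6 SERINC probe sets were among them.

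The second SERINC2 probe set, 7914350, is annotated with 1 sequence record and did not repeat this pattern. Its GM10855 arrays read 5.25, 5.39 and 4.98 untreated and 5.53, 5.51 and 5.09 with calcitriol. In GM10861 they read 4.98, 5.43 and 5.16 untreated and 5.25, 5.19 and 5.48 with calcitriol. The groups overlapped in both lines. The change with calcitriol was 0.14 ± 0.086 (-0.04 to 0.32) and with calcitriol added to estrogen 0.01 ± 0.086 (-0.17 to 0.19), both below the intervals of the first probe set. The mean of this second set over all arrays was 5.30, below the array medians of 5.38 to 5.50. RMA compresses changes of dim probe sets, and its part in the difference between the sets was not tested. Where the probes of each set fall in the transcript was not analysed here.

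SERINC1, which like SERINC3 is widely expressed, stayed within 8.62 to 9.04 on all 24 arrays. In GM10855 it read 8.72, 8.68 and 8.76 untreated, 8.88, 8.80 and 8.97 with calcitriol, 9.04, 8.97 and 8.95 with estrogen, and 9.01, 8.88 and 9.003 with both. Every treated array of GM10855 at 36 h lay above every untreated array at 0 h, whichever agent it had received. The share of all probe sets that separate in this way in GM10855 was not counted, so nothing particular to SERINC1 is read from it. In GM10861 the values were 8.81, 8.67 and 8.78 untreated, 8.62, 8.73 and 8.81 with calcitriol, 8.65, 8.80 and 8.70 with estrogen, and 8.68, 8.73 and 8.80 with both, and all groups overlapped.

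Against untreated, SERINC1 in GM10855 was higher by 0.16 ± 0.074 (0.01 to 0.32) with calcitriol, 0.27 ± 0.074 (0.12 to 0.42) with estrogen and 0.25 ± 0.074 (0.09 to 0.40) with both. None of these changes was called. The same changes in GM10861 were -0.03, -0.04 and -0.02. No difference of these 3 responses between the lines passed the test across all probe sets: they were -0.20 ± 0.10 (adjusted p = 0.778, limma), -0.31 ± 0.10 (adjusted p = 0.799) and -0.26 ± 0.10 (adjusted p = 0.354). At matched time, calcitriol added to estrogen moved SERINC1 by 0.00 ± 0.052 (-0.11 to 0.11) over both lines.

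SERINC3, one of the members known to lower retroviral infectivity, varied little. It read 8.89 to 9.24 in GM10855 and 8.87 to 9.06 in GM10861. Calcitriol changed it by 0.03 ± 0.054 (-0.08 to 0.14) and estrogen by 0.08 ± 0.054 (-0.03 to 0.19), and calcitriol added to estrogen by 0.00 ± 0.054 (-0.11 to 0.11). All 5 intervals of its agent changes include 0.

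SERINC5, the most potent member against HIV in published work, had no called change. In GM10855 it read 5.46, 5.29 and 5.48 untreated, 5.38, 5.18 and 5.25 with calcitriol, 5.56, 5.26 and 5.61 with estrogen, and 5.71, 5.42 and 5.39 with both. In GM10861 it read 5.45, 5.53 and 5.48 untreated, 5.39, 5.60 and 5.45 with calcitriol, 5.29, 5.76 and 5.37 with estrogen, and 5.10, 5.28 and 5.44 with both. Its arrays spread widely within groups, and the changes averaged over lines were -0.07 ± 0.085 (-0.25 to 0.10) with calcitriol, 0.03 ± 0.085 (-0.15 to 0.20) with estrogen and -0.06 ± 0.085 (-0.23 to 0.12) with both. Estrogen added to calcitriol gave 0.24 ± 0.12 in GM10855 and -0.20 ± 0.12 in GM10861, a difference of -0.44 ± 0.17 that did not pass across all probe sets (adjusted p = 0.660, limma).

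SERINC4 had a dim signal, 3.67 to 4.25 over the 24 arrays, under the mean log2 signal of 5 that served as an alternative filter on dim probe sets. With calcitriol it read 3.67, 3.96 and 3.77 in GM10855, against 3.98, 4.25 and 3.89 untreated, and 3.92, 3.88 and 3.93 in GM10861, against 3.92, 3.95 and 4.10. The groups overlapped in each line. Calcitriol changed it by -0.16 ± 0.068 (-0.30 to -0.02) against untreated, while calcitriol added to estrogen gave -0.04 ± 0.068 (-0.18 to 0.10). Neither change was called. SERINC4 overlaps the gene SERF2 in the RefSeq annotation, and SERF2 has no probe set of its own symbol alone here.

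The lines differed at 2 of the 6 SERINC probe sets when averaged over the 4 agents, against a background of 41.8% of all probe sets. SERINC2 was higher in GM10861 by 0.41 ± 0.048 (95% interval 0.31 to 0.51; adjusted p = 1.69e-07, limma), and SERINC1 was lower there by 0.16 (-0.16 ± 0.037, -0.23 to -0.08; adjusted p = 0.00119). SERINC3 (-0.06 ± 0.038, adjusted p = 0.192), SERINC4 (0.04 ± 0.048, adjusted p = 0.537), SERINC5 (0.01 ± 0.060, adjusted p = 0.910) and the second SERINC2 probe set (-0.02 ± 0.061, adjusted p = 0.867) did not pass. After cyclic loess between arrays SERINC3 also passed, at -0.17 (adjusted p = 0.000275, limma). A share of 2 in 6 is close to the background, so it shows nothing particular to the family.

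Within single agents the SERINC2 difference was 0.15 ± 0.096 in untreated cells (-0.05 to 0.35; adjusted p = 0.272, limma). It was 0.55 with calcitriol (adjusted p = 1.42e-04), 0.36 with estrogen (adjusted p = 0.00855) and 0.57 with both agents (adjusted p = 8.36e-05), each with an SE of 0.096. SERINC1 differed by 0.03 ± 0.074 in untreated cells (adjusted p = 0.795), and by -0.16 with calcitriol (adjusted p = 0.136), -0.27 with estrogen (adjusted p = 0.0096) and -0.23 with both (adjusted p = 0.0292). Background shares called between the lines were 24.3% in untreated cells, 19% with calcitriol, 19.3% with estrogen and 19.8% with both agents. Neither gene was called in untreated cells. The change of the line difference with an agent is the difference of that response between the lines, and those given above did not pass. For SERINC2 with estrogen against untreated it was 0.21 ± 0.14 (-0.07 to 0.49), which did not pass either (adjusted p = 0.816, limma).

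**Figure D3:**
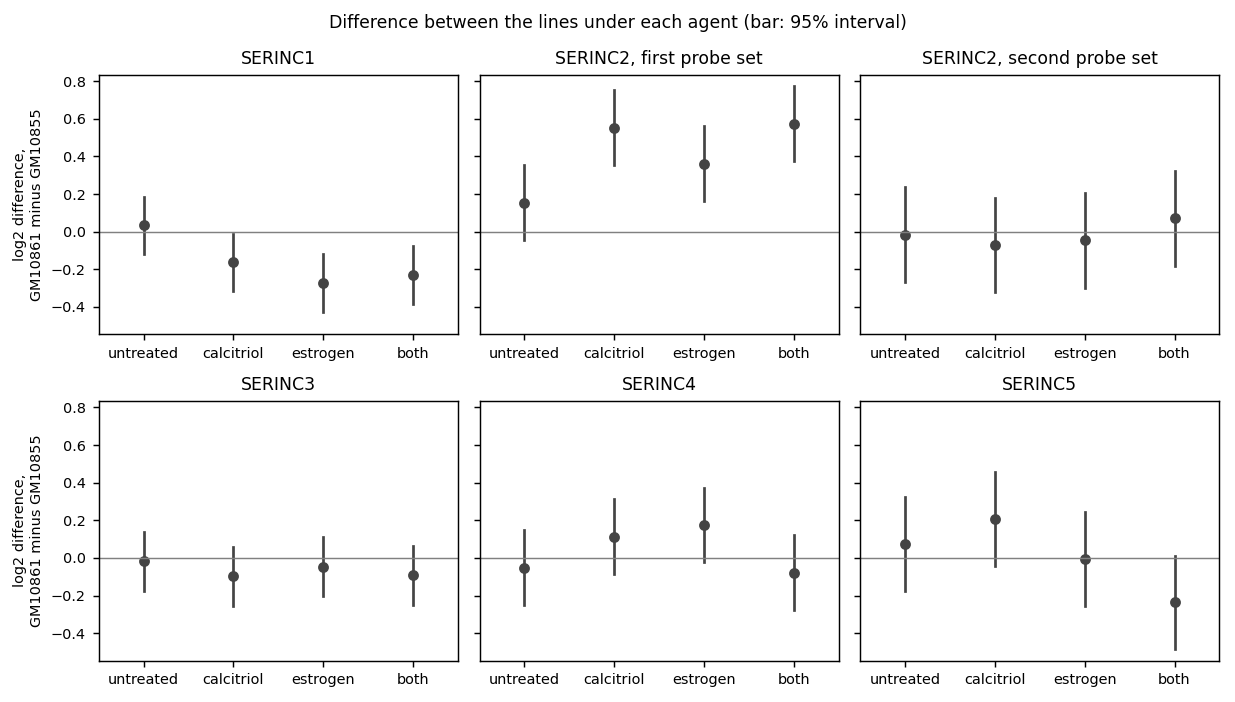
Log2 difference between the lines, GM10861 minus GM10855 (vertical axis), under each agent (horizontal axis) for the 6 SERINC probe sets, with 95% intervals as bars. The first SERINC2 probe set lies above 0 by 0.36 to 0.57 in the treated groups, SERINC1 lies at 0.03 in untreated cells and below 0 in the treated groups.

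Genes next to the SERINC genes in the RefSeq order gave no call with calcitriol. On either side of SERINC2, FABP3, a fatty acid binding protein, changed by 0.17 ± 0.070 and TINAGL1, an extracellular matrix protein, by -0.08 ± 0.077. Beside SERINC1, PKIB changed by 0.00 ± 0.079. Around SERINC3, TTPAL changed by 0.07 ± 0.062 and PKIG by -0.05 ± 0.10, and around SERINC5, THBS4 changed by -0.06 ± 0.10 and SPZ1 by 0.01 ± 0.078. HSF2 beside SERINC1, and SERF2 and HYPK at SERINC4, were not analysed here.

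Genes most like the first SERINC2 probe set were ranked by Pearson's r over the 24 arrays after subtraction of each line's mean, among 16309 probe sets of other protein-coding genes. The closest were CD38 at r = 0.921, an ectoenzyme that consumes NAD; LGMN at 0.915, the lysosomal protease legumain; CYP24A1 at 0.913, which degrades calcitriol; TENT5C at 0.911, a poly(A) polymerase; and CAMP at 0.899, an antimicrobial peptide. The most opposite were ANXA1 at -0.801, an annexin, CCR2 at -0.791, a chemokine receptor, and CCDC88A at -0.781, an actin-binding protein. These r values join arrays with calcitriol to arrays without it. The arrays with and without calcitriol did not overlap in SERINC2 or in the closest genes named. They were only narrowly apart in ANXA1, and they overlapped in CCR2 and CCDC88A. With each group's own mean subtracted instead, r was -0.26 for CD38, 0.11 for LGMN, -0.08 for CYP24A1, -0.14 for TENT5C and 0.19 for CAMP, so the likeness lies in the step between groups and not in the variation among arrays of a group. The steps themselves differed in size: with calcitriol CAMP rose by 2.46 and CYP24A1 by 2.06, CD38 by 1.002, LGMN by 0.83 and TENT5C by 0.73, and SERINC2 by 0.65.

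**Figure D4:**
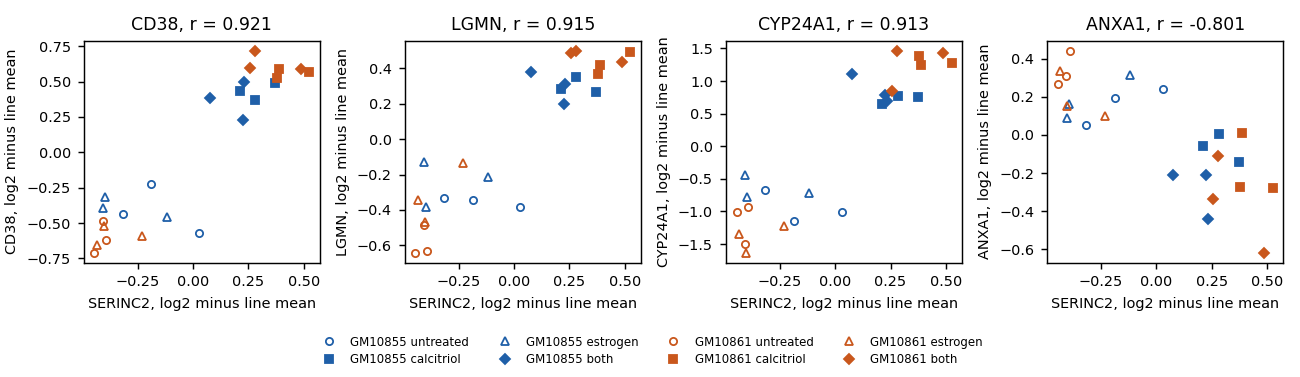
Signal of CD38, LGMN, CYP24A1 and ANXA1 (vertical axes, log2 minus the line mean) against that of the first SERINC2 probe set (horizontal axis, same scale) on 24 arrays, with filled symbols for arrays with calcitriol and colours for the lines. The arrays with calcitriol form a cluster of their own in each panel, which for ANXA1 nearly touches the other (0.009 against 0.054). The r values (0.921, 0.915, 0.913 and -0.801) rest on the step between the clusters and do not give its size.

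The related gene lists are given as counts of called genes, beside the 0.679% of all probe sets called with calcitriol. The share was 0.754% for calcitriol added to estrogen and 1.15% for both agents against untreated. Among genes of serine synthesis and uptake, 14 of 16 were measured and 1 rose: PHGDH, the first enzyme of serine synthesis, by 0.40 ± 0.056 (adjusted p = 1.78e-04, limma). PHGDH also rose with both agents, by 0.34, and with calcitriol added to estrogen, by 0.27 (called there in 14 of 19 alternative settings). SLC38A2, an amino acid transporter, was at -0.14 ± 0.048, SRR, serine racemase, at -0.11 ± 0.062 and SLC3A2, a transporter subunit, at 0.08 ± 0.047, none of them called. The list's median change with calcitriol was 0.0025, beside -0.0011 over all probe sets tested.

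Synthesis of phosphatidylserine and sphingolipids, the use of serine after which the family was named, had 25 of 27 genes measured and 0 called with calcitriol (median 0.0082). The lowest p-values belonged to DEGS1 at -0.15 ± 0.057, a ceramide desaturase, CERS6 at 0.13 ± 0.051, a ceramide synthase, PTDSS2 at 0.16 ± 0.065, a phosphatidylserine synthase, and KDSR at -0.14 ± 0.063, a reductase of sphingolipid synthesis. CERS6 rose with both agents against untreated, by 0.21 ± 0.051 (adjusted p = 0.0478, limma), a call kept in 7 of 19 alternative settings. At matched time it changed by 0.11 ± 0.051 with calcitriol added to estrogen and by 0.07 ± 0.051 with estrogen added to calcitriol, neither called.

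Of 30 other lipid scramblases and flippases, 28 were measured and 0 were called with calcitriol (median 8.2e-05). The flippase ATP8B1 was at 0.30 ± 0.11, XKR8, a scramblase of dying cells, at 0.20 ± 0.085, PLSCR4 at 0.15 ± 0.073 and the flippase ATP8A1 at 0.14 ± 0.062. ATP8A1 rose with both agents against untreated, by 0.26 ± 0.062 (adjusted p = 0.0410, limma), a call kept in 4 of 19 alternative settings. At matched time it changed by 0.12 ± 0.062 with calcitriol added to estrogen and by 0.12 ± 0.062 with estrogen added to calcitriol, neither called. None of the 16 measured genes of the AP-2 adaptor and clathrin endocytosis, the route by which Nef removes SERINC5, was called (median -0.0045), and AAK1, a kinase of the adaptor, was at -0.09 ± 0.077.

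Of 26 other retroviral restriction factors, 25 were measured and 1 rose with calcitriol: SLFN11, which blocks synthesis of viral proteins, by 0.44 ± 0.065 (adjusted p = 4.87e-04, limma). It rose by 0.52 with calcitriol added to estrogen and by 0.51 with both agents. GBP2 was at -0.26 ± 0.082 and GBP5 at -0.14 ± 0.099, guanylate-binding proteins that impair viral envelope maturation, and neither was called. The list's median was -0.0088.

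A list of 8 calcitriol response genes, chosen with these results known, rose in full: CYP24A1, CAMP, CD38, STS, LGMN, CD79A, G0S2 and VDR, the calcitriol receptor itself. STS, steroid sulfatase, rose by 1.89 ± 0.061, G0S2, a lipase inhibitor, by 0.53 ± 0.070 and VDR by 0.44 ± 0.062, so the SERINC2 rise of 0.65 lay within the range of this list, whose median was 0.93. Among B cell markers 3 of 13 rose together with SERINC2: CD79A, a B cell receptor subunit, by 0.85 ± 0.063, CR2, a complement receptor, by 0.41 ± 0.062 and PAX5, a B cell transcription factor, by 0.26 ± 0.054 (adjusted p = 0.0199, limma, called in 10 of 19 alternative settings). The median of the 13 was 0.06, and 0 of the measured markers of T cells, NK cells, monocytes, erythroid cells or fibroblasts were called with calcitriol. What part the B cell marker changes have in the SERINC2 rise was not tested.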

How the data were processed

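RNA from 24 samples was hybridised singly to Affymetrix whole-transcript arrays. Per the submitters' processing notes, the authors ran RMA in version 1.0.1 of Affymetrix Expression Console, and they deposited 1 log2 signal for each probe set and array. RMA equalises array distributions and compresses changes of dim probe sets, so a change common to most genes would be removed. The table holds 33297 probe sets, of which 19460 have 1 gene symbol, 1754 several and 12083 none. The number of arrays limits the precision, and detection p-values were not used here.

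The 8 groups of 3 arrays were fitted with limma 3.58.1 in R 4.3.3 as group means on all 21214 annotated probe sets, with empirical Bayes variances (16 residual and 6.73 prior degrees of freedom), two-sided tests and Benjamini-Hochberg adjustment. Intervals are at 95%. The fit was tested on simulated data. Title numbers run through the whole series and pair no arrays.

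The members, lists and tests were chosen with earlier results of these data known. The lists held 189 entries, 174 of them measured, each by its brightest probe set. Named genes were all members, in each list up to 4 genes with the smallest p for calcitriol against untreated and any called gene, the 5 most and 3 least similar genes, and chromosomal neighbours. Alternatives were a filter on dim probe sets, all probe sets, median centring, cyclic loess, trended robust variances, array weights, the compared groups alone and leaving out each array.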

Additional observations from a re-analysis of the deposited data

How the results depend on the processing

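Of 869 recomputed values of 42 results, 853 kept their direction and call, or stayed within the spread between arrays where no test was given. Small shifts in a count of called members were also taken as kept: the count between the lines rose from 2 to 3 after cyclic loess. SERINC2 with calcitriol ranged from 0.61 to 0.69, and it was called in all 19 alternatives run for each calcitriol comparison. The line differences of SERINC2 (0.35 to 0.44) and SERINC1 (-0.27 to -0.13) were called in all 30. SERINC3 differed between the lines after cyclic loess, at -0.17443 (adjusted p = 0.000275, limma). The line difference of the second SERINC2 probe set, near 0, changed sign to 0.0107 with median centring, 0.0354 with cyclic loess and 0.00274 with array weights, and ran from -0.0513 to 0.0110 as single arrays were left out. That of SERINC5 ran from -0.0252 to 0.0361 as single arrays were left out and reached 0.0577 over all 30 alternatives. The cause was not tested.

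The number of probe sets called moved more than the members did. For calcitriol added to estrogen it fell from 160 to 99 in the compared groups alone, and to 99, 102 and 103 without GM10855 both-agents array 1, GM10861 estrogen array 1 or GM10861 both-agents array 1. For both agents it went from 243 to 371 with trended robust variances and to 138 in the compared groups alone. SERINC4 has no value under the filter on dim probe sets. No paired analysis was possible because the labels give the arrays no replicate numbers that groups share.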
